A study of Mus musculus with 6 samples.

Results

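The genes described here are 8 of the class I antigen presentation pathway, taken by symbol from the 24047 rows of the count table: H2-K1, H2-D1, B2m, Tap1, Tap2, Tapbp, Nlrc5 and Erap1. RNA was sequenced from CD4 T cells of 7-week-old mice of strain B6.129, in 3 wild-type (WT) libraries and 3 libraries labelled Srsf1-cKO. Srsf1-cKO mice carry Srsf1-flox/flox and dLck.Cre, a Cre recombinase driven by the distal Lck promoter, which is active mainly in maturing T cells. In both groups, naive (CD4+CD62L+) splenic cells were activated for 72 h with anti-CD3 (0.5 µg/mL) and anti-CD28 (1 µg/mL). A second stimulus of 4 h followed, with PMA (a phorbol ester, 100 ng/mL) and ionomycin (a calcium ionophore, 1 µM), which bypass the receptor. The comparison asks how the RNA of activated T cells differed between libraries labelled Srsf1-cKO and WT. Srsf1 encodes a splicing factor.

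Class I molecules show peptides from inside the cell to CD8 T cells, and nearly all nucleated cells carry them. A heavy chain (H2-K1 and H2-D1 in mice) pairs with the invariant light chain beta-2-microglobulin (B2m). Peptides cut by the proteasome enter the endoplasmic reticulum through the transporter made of TAP1 and TAP2, are trimmed by the aminopeptidase ERAP1, and are loaded with the help of tapasin (Tapbp). NLRC5 is a coactivator of class I genes that docks on a promoter module bound by RFX, CREB/ATF and NF-Y proteins. Interferon gamma, which activated T cells can secrete, raises most of these genes, in part through the factor IRF1.

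The promoters of the heavy and light chains are shown for their matches to parts of the control elements named above. The stretch between Tap1 and Psmb9 is shown because Tap1 is the gene of the 8 that was called. No motif of the RFX proteins was searched. The sequences are from RefSeq on GRCm38.p6, 5′ to 3′ on the gene's strand, and end at the annotated start. They are H2-K1 at chr17:34000348-34000597 (minus strand; 1 of 2 annotated starts), H2-D1 at chr17:35262844-35263093 (plus), B2m at chr2:122147437-122147686 (plus) and Tap1 at chr17:34187331-34187555 (plus). Capitals mark matches, on either strand, to GAAANNGAAA (core of the interferon-stimulated response element), CCAAT (the Y box of NF-Y), TGACG (part of the X2 box of CREB/ATF) and GAANNGAAA, a shorter form of the first that was added after the sequences were seen.
H2-K1: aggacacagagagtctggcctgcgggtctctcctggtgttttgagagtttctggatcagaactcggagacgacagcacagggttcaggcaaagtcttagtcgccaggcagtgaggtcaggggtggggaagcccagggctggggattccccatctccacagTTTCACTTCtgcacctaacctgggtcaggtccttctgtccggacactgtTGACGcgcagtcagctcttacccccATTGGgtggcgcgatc
H2-D1: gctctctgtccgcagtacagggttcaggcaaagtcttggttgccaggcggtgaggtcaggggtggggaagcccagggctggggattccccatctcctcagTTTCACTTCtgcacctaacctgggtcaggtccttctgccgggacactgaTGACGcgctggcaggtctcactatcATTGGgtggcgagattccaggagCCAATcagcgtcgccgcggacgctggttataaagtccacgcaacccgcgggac
B2m: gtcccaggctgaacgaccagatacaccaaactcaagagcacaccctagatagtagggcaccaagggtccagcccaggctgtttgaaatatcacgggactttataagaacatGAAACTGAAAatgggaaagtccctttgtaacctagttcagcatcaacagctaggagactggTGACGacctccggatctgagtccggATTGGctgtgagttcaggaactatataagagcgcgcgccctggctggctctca
Tap1: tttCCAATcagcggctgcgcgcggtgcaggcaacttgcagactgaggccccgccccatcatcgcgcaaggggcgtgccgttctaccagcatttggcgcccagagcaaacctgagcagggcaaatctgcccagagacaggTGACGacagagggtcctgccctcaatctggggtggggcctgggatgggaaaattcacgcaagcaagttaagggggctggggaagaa

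The H2-K1 and H2-D1 promoters were 87.4% identical over 190 aligned bases. In H2-K1, H2-D1 and B2m alike, the TGACG match was followed by an ATTGG match (CCAAT on the other strand) starting 25 bases further on. In both heavy-chain genes a match to GAANNGAAA, the form added after the sequences were seen, started 49 bases before TGACG. Neither heavy-chain promoter held GAAANNGAAA. In B2m a GAAANNGAAA match started 61 bases before TGACG. The Tap1 stretch held CCAAT and TGACG in the other order, and no GAAANNGAAA or GAANNGAAA match. Of 32851 RefSeq promoters of 250 bases, 33.8% held CCAAT, 17.8% TGACG, 2.98% GAAANNGAAA and 6.31% GAANNGAAA, overlaps with other motifs included. TTCCNGGAA, the GAS element of interferon gamma signalling, was in 0.913% of them and in none of the 6 promoters with an entry, which adds Tapbp and Erap1 to the 4 shown. A match describes letters and not a bound site. Tap2 and Nlrc5 were not matched.

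Library totals ran from 7781283 to 10184268 gene counts. The RNA of the targeted gene, Srsf1, was no lower in those labelled Srsf1-cKO than in WT: WT libraries held 4889, 3520 and 3679 reads of it, and the others 4839, 4911 and 5022 (log2 fold change 0.06, SE 0.12, edgeR adjusted p = 0.780). A gene count does not show whether the floxed exons were absent. T cell markers summed to 3327 to 3556 CPM (counts scaled by TMM library size) in WT and 2973 to 4304 in those labelled Srsf1-cKO, where Cd3g, 1 of 10 markers, was called. Of 10454 genes tested, 18.4% were called at an adjusted p under 0.05, and 8.9% were called higher and 9.5% lower.

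Of the 8 class I genes, 1 was called lower (Tap1) and 0 higher in edgeR, and the groups did not overlap for 2 (Tap1 and Nlrc5). Among all genes tested, the groups did not overlap for 39.4%, and 18.4% were called in either direction, so neither count of the 8 stood above the background. At an unadjusted p under 0.05 there was also 1, beside 34.9% of all genes. The median log2 fold change of the 8 was 0.03, and that of all genes tested was 0.01. In bulk RNA, fewer cells that express a gene and less RNA per cell cannot be told apart.

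**Figure D1:**
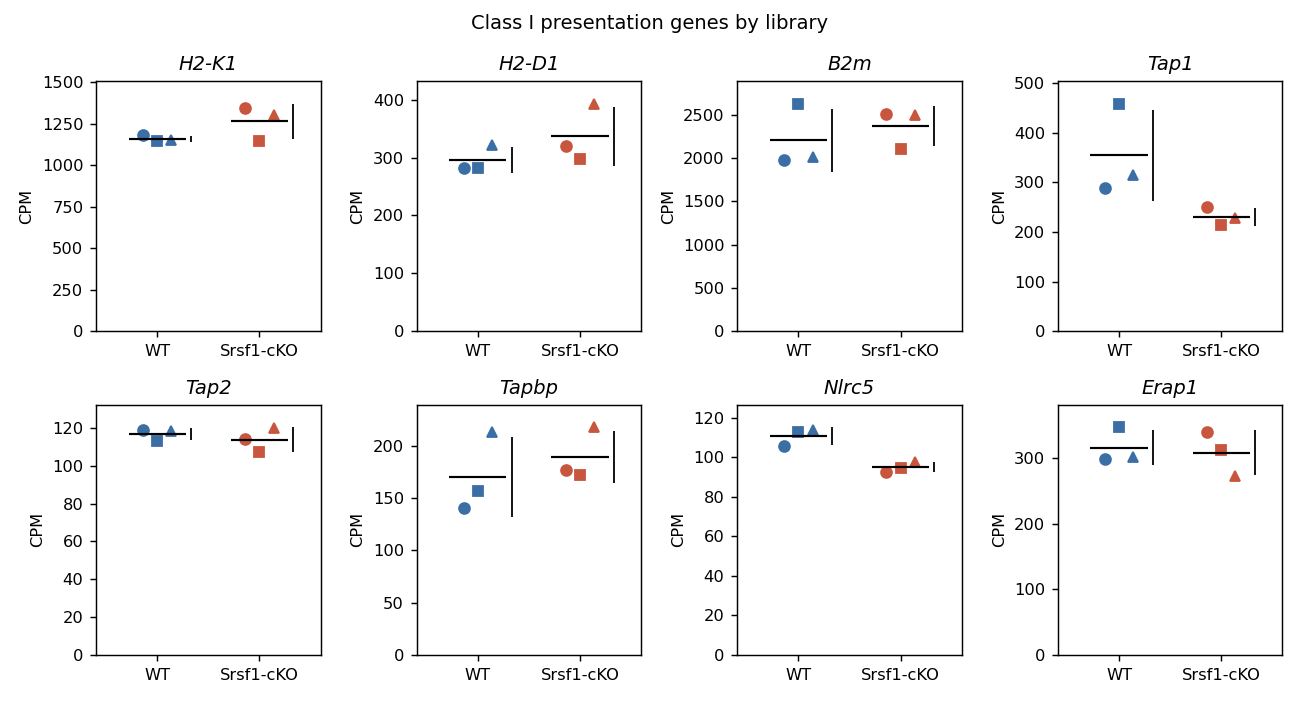
CPM of the 8 class I genes in each library (y axis from 0). Points are libraries (circle, square and triangle for replicates 1 to 3), horizontal lines are means and vertical lines are 1 SD over 3 libraries. Tap1 and Nlrc5 are the genes whose WT and Srsf1-cKO points do not overlap.

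The heavy chain gene H2-K1 stood at 1179, 1148 and 1152 CPM in WT and at 1345, 1146 and 1304 in those labelled Srsf1-cKO. The WT libraries lay close together, and Srsf1-cKO replicate 2 lay with them. The log2 fold change was 0.13 (SE 0.12, edgeR adjusted p = 0.474), and its interval ran from -9.20% to 31.0%. H2-D1, the other heavy chain, was at 282, 282 and 322 CPM in WT and at 320, 297 and 393 in those labelled Srsf1-cKO. The groups overlapped, and Srsf1-cKO replicate 3 was the highest (log2 fold change 0.19, SE 0.14, edgeR adjusted p = 0.375; interval -8.76% to 42.2%).

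B2m, the light chain, stood at 1981, 2629 and 2018 CPM in WT and at 2514, 2111 and 2501 in those labelled Srsf1-cKO. WT replicate 2 was the highest of all 6, and WT replicates 1 and 3 were below every library labelled Srsf1-cKO, so the overlap rested on WT replicate 2. Its log2 fold change was 0.10 (SE 0.15, edgeR adjusted p = 0.650), with an interval from -15.0% to 35.9%. Without WT replicate 2 it was 0.24 (edgeR adjusted p = 0.265), and without WT replicate 1 it was 0.01. The ratio of H2-K1 to B2m, which does not depend on library scaling, was 0.241 ± 0.0383 in WT and 0.240 ± 0.00464 in those labelled Srsf1-cKO (FPKM, SD, n = 3 each). The ratio of H2-D1 to B2m was 0.179 ± 0.0326 and 0.176 ± 0.0190, and that of H2-K1 to H2-D1 was 1.35 ± 0.0803 and 1.38 ± 0.162. For these 3 ratios the groups overlapped, so no unequal change among the surface subunits was seen beyond the spread between libraries.

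Tap1 encodes a subunit of the peptide transporter. It stood at 289, 458 and 315 CPM in WT (354 ± 91.1, SD, n = 3) and at 250, 213 and 228 in those labelled Srsf1-cKO (231 ± 18.4). WT replicate 2 was well above all others, and the lowest WT library was above the highest Srsf1-cKO library. Tap1 fell by 0.62 on the log2 scale (SE 0.18, edgeR adjusted p = 0.0453), a change of -34.9% with an interval from -51.0% to -13.4%. The call was close to the threshold: it was kept in 8 of 15 alternatives, with adjusted p-values from 0.0125 to 0.164. It was lost when WT replicate 1 (0.0712), WT replicate 2 (0.0765), or Srsf1-cKO replicate 1 (0.0778), 2 (0.164) or 3 (0.0964) was left out. Without WT replicate 2 the log2 fold change was -0.40.

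Tap2, whose product forms the transporter with TAP1, was at 119, 113 and 119 CPM in WT and at 114, 107 and 120 in those labelled Srsf1-cKO. Those ranges overlapped (log2 fold change -0.04, SE 0.12, edgeR adjusted p = 0.845; interval -18.7% to 16.8%), and the sign turned to 0.07 with library-size scaling. Within libraries, the ratio of Tap1 to Tap2 FPKM was 2.03, 3.35 and 2.20 in WT and 1.83, 1.67 and 1.59 in those labelled Srsf1-cKO. The ratio was thus lower in each Srsf1-cKO library than in any WT library, and its mean was 0.671 times that of WT.

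Tapbp, the loading factor tapasin, was at 141, 157 and 213 CPM in WT and at 177, 172 and 218 in those labelled Srsf1-cKO. Replicate 3 was the highest in each group and the ranges overlapped (log2 fold change 0.15, SE 0.18, edgeR adjusted p = 0.576; interval -15.9% to 46.7%). The ratio of Tapbp to Tap1 FPKM was 0.536, 0.376 and 0.746 in WT and 0.781, 0.886 and 1.05 in those labelled Srsf1-cKO. The ranges did not overlap, and the mean ratio was 1.64 times that of WT.

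Erap1, the trimming peptidase of the endoplasmic reticulum, stood at 299, 346 and 301 CPM in WT and at 340, 311 and 272 in those labelled Srsf1-cKO. The groups overlapped, and no difference was called (log2 fold change -0.03, SE 0.13, edgeR adjusted p = 0.876; interval -20.7% to 20.2%). Its sign was not stable: it turned with library-size scaling (0.07). Nlrc5, the coactivator, was at 106, 113 and 114 CPM in WT and at 92.5, 94.8 and 97.7 in those labelled Srsf1-cKO. Every WT library was above every Srsf1-cKO library, but the difference was not called (log2 fold change -0.22, SE 0.11, edgeR adjusted p = 0.203; interval -28.3% to 2.68%). With library-size scaling, which moved the median of all genes from 0.01 to 0.11, the Nlrc5 value was -0.12. In the FPKM values the Nlrc5 groups overlapped (log2 fold change -0.11, limma adjusted p = 0.564).

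**Figure D2:**
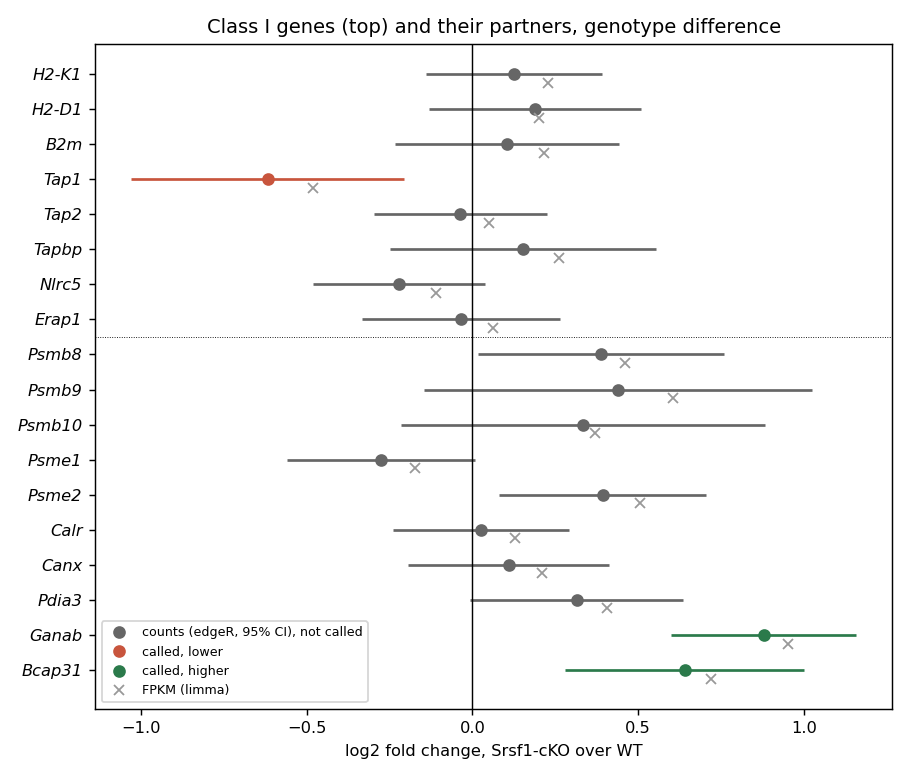
Log2 fold change of Srsf1-cKO over WT for the 8 class I genes (above the dotted line) and 10 partner genes. Circles are edgeR estimates from counts with 95% intervals, coloured by call, and crosses are limma estimates from FPKM. Of the 8, Tap1 is the one whose interval lies below 0, and of the 10 partners plotted, Ganab and Bcap31 were called.

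Per length of transcript, B2m was the most abundant of the 8. Its mean FPKM was 2321 in WT and 2671 in those labelled Srsf1-cKO, which ranked 51 and 18 of 24043 rows. H2-K1 followed with 547 and 641 FPKM, and H2-D1 with 406 and 470. The loading genes were lower: Tap1 had 87.5 FPKM in WT and 60.9 in those labelled Srsf1-cKO, Erap1 55.5 and 58.0, Tapbp 46.2 and 54.9, and Tap2 34.6 and 35.9. Nlrc5 was the lowest, with 10.7 and 9.83. In WT the ranges of neighbours in this order overlapped for Erap1 and Tapbp and for no other pair. In those labelled Srsf1-cKO they overlapped for Tap1 with Erap1 and for Erap1 with Tapbp.

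The FPKM table gave 0 of 8 genes called by limma on log2(FPKM + 1), where 18.7% of 9617 genes were called (12.3% higher and 6.39% lower). At an unadjusted p under 0.05 it gave 1 of the 8 genes, beside 36.7% of all. The groups did not overlap for 2 of the 8, beside 40.8% of all. One was Tap1, with 68.5, 116 and 78.0 FPKM in WT and 64.8, 57.5 and 60.3 in those labelled Srsf1-cKO (log2 fold change -0.48, limma adjusted p = 0.112). The other was H2-K1, with 534, 558 and 548 FPKM in WT and 669, 593 and 662 in those labelled Srsf1-cKO (log2 fold change 0.23, limma adjusted p = 0.148). The median log2 fold change over all genes was 0.10 in this table, and that of the 8 was 0.13. Calls over all genes split into 930 higher and 993 lower in the main test, 1268 and 709 with library-size scaling, and 1186 and 615 in the FPKM table.

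Of 42 partner genes of the pathway, 24 were tested, and 4 were called higher and 1 lower in edgeR. Beside them, 8.9% of all genes tested were called higher and 9.5% lower. The median log2 fold change of the 24 was 0.25, against 0.01 for all genes tested. Without WT replicate 1, 1 was higher and 0 lower, as without Srsf1-cKO replicate 2; without Srsf1-cKO replicate 1, 2 were higher and 0 lower; without Srsf1-cKO replicate 3, 3 were higher and 4 lower. Sample weights gave 7 higher and 5 lower, DESeq2 4 and 3, and the FPKM values 6 and 2 of 31. The called members were in quality control and among the class I-like heavy chains. Ganab, the catalytic subunit of glucosidase II, which trims the glycans that calnexin and calreticulin read, stood at 99.2, 110 and 93.8 CPM in WT and at 177, 197 and 184 in those labelled Srsf1-cKO. It rose by 0.88 (log2, SE 0.12, edgeR adjusted p = 0.00663), with no overlap, and was called in all 15 alternatives. Bcap31, which handles cargo leaving the endoplasmic reticulum, class I included, was at 70.9, 66.1 and 69.3 CPM in WT and at 91.3, 98.4 and 132 in those labelled Srsf1-cKO. It rose by 0.64 (SE 0.16, edgeR adjusted p = 0.0273) and was called in 12 of 15 alternatives, but not without WT replicate 1, WT replicate 2 or Srsf1-cKO replicate 2. Canx, the chaperone calnexin and the most abundant partner, ranged from 815 to 982 CPM in WT and from 854 to 1039 in those labelled Srsf1-cKO (log2 fold change 0.11, edgeR adjusted p = 0.593).

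Among the other class I and class I-like heavy chains, 10 of 28 genes were tested, and their median log2 fold change was -0.29. H2-T24 rose by 1.46 (SE 0.33, edgeR adjusted p = 0.0204), from 3.21, 7.15 and 7.65 CPM in WT to 20.6, 15.4 and 13.1. Cd1d1, which presents lipids, rose by 1.16 (SE 0.35, edgeR adjusted p = 0.0471), from 1.77, 2.60 and 2.90 CPM to 4.54, 4.13 and 7.51. H2-Q2 fell by 2.04 (SE 0.44, edgeR adjusted p = 0.0173), from 3.43, 4.03 and 4.88 CPM to 0.864, 0.446 and 1.6. H2-T24 was called in 12 of 15 alternatives and H2-Q2 in 11 of 14, both losing the call without WT replicate 1, Srsf1-cKO replicate 1 or Srsf1-cKO replicate 2. Cd1d1 was called in 8 of 14, and lost the call with limma-voom and without any 1 library other than WT replicate 3. H2-T23, chosen after its values were seen, encodes the Qa-1 molecule. It overlapped between the groups, at 161, 176 and 141 CPM in WT and 185, 147 and 136 in those labelled Srsf1-cKO.

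Reads of near-identical class I genes could be split differently in the 2 tables. H2-Q6, H2-Q7, H2-Q9 and H2-T9 had 0 counts in all libraries but were present in the FPKM table. There, H2-Q7 had 87.8, 85.9 and 87.4 FPKM in WT and 53.3, 56.8 and 79.7 in those labelled Srsf1-cKO. H2-Q9 had 28.1, 35.0 and 29.6 FPKM in WT and 68.3, 54.2 and 69.1 in those labelled Srsf1-cKO (log2 fold change 1.02, limma adjusted p = 0.00933). The differences of these 2 genes had opposite signs, and their sum with H2-Q6 and H2-Q8 overlapped between the groups, at 144 ± 4.34 and 155 ± 26.1 FPKM (SD, n = 3 each). These 4 genes and H2-T9 were chosen after their values were seen, and their single values are uncertain.

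Among the 8 genes, H2-D1 stood apart in how many reads were counted. Counts and FPKM together imply a transcript length, which was 34.3% of the longest coding transcript of H2-D1 in the reference annotation. It was 126% for H2-K1 and 107% for B2m, and the median over 8827 genes was 126%. Of those genes 2.65% were below H2-D1, so its counts were low for its FPKM. Of the 75-base windows of that transcript, 6.90% (140 of 2028) were also in transcripts of other genes, most often H2-Q1. The share was 1.55% for H2-K1, 0.992% for Tapbp and 0 for B2m, Tap1, Tap2, Nlrc5 and Erap1. Multi-mapped reads were 14.93% to 17.02% of each library. Whether shared reads or the gene models produced the low H2-D1 counts was not tested, and the H2-D1 fold changes were 0.19 from counts and 0.20 from FPKM.

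**Figure D3:**
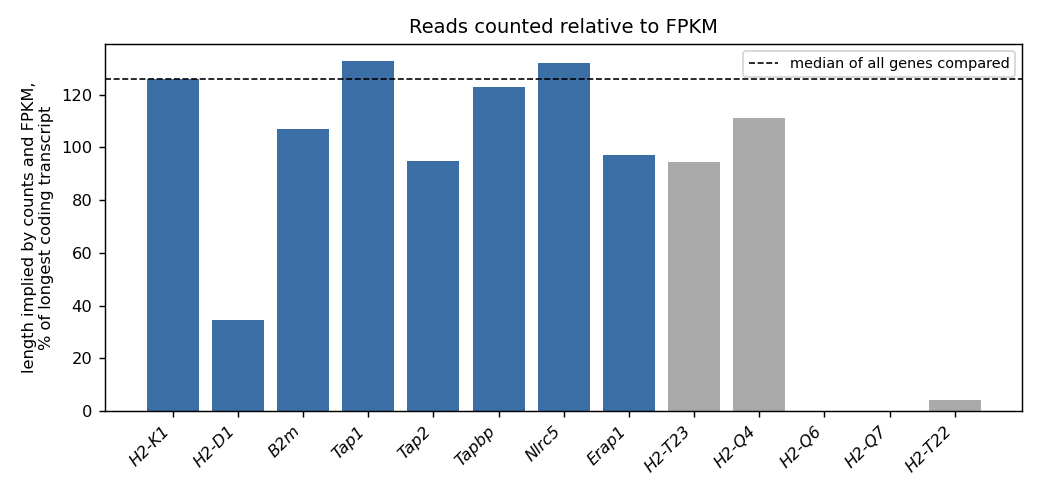
Transcript length implied by counts and FPKM together, as a percent of the longest coding transcript, for the 8 class I genes (blue) and 5 other class I genes (grey). The dashed line is the median of 8827 genes (126%). H2-D1 is at 34.3%, and H2-Q6 and H2-Q7, which have 0 counts, are at 0.

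The immunoproteasome, which interferon gamma induces, cuts peptides suited to class I. Of the 6 genes listed for it, edgeR called 0, and 2 had an unadjusted p under 0.05. Of all genes tested, 18.4% were called and 34.9% had such a p. The median log2 fold change of the 6 was 0.36. Without WT replicate 2, 1 of the 6 was called higher. In the FPKM values, by limma, 1 of the 6 was called: Psme2, a subunit of the PA28 activator, with a log2 fold change of 0.51 (limma adjusted p = 0.0332). The 6 are named here after their values were seen. Psmb8, a catalytic subunit, was at 194, 202 and 193 CPM in WT and at 222, 223 and 324 in those labelled Srsf1-cKO, with no overlap (log2 fold change 0.39, edgeR adjusted p = 0.129). Psme1, the partner of Psme2, was at 326, 342 and 297 CPM in WT and at 265, 241 and 290 in those labelled Srsf1-cKO (log2 fold change -0.28, edgeR adjusted p = 0.154). The same pair thus had log2 fold changes of opposite sign, with Psme2 at 0.39 (edgeR adjusted p = 0.0777). Psmb10 and Pomp, a catalytic subunit and an assembly factor, had 0.33 and 0.28.

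Psmb9, Tap1, Psmb8 and Tap2 are adjacent coding genes on chromosome 17 in RefSeq, and Psmb9 and Tap1 start back to back across the 225 bases printed above. Psmb9, a catalytic subunit, stood at 43.0, 72.3 and 32.6 CPM in WT and at 64.7, 63.6 and 72.1 in those labelled Srsf1-cKO. The groups overlapped through WT replicate 2, which was also the highest for Tap1 (Psmb9 log2 fold change 0.44, SE 0.26, edgeR adjusted p = 0.260). Without WT replicate 2 it was called higher (0.81, edgeR adjusted p = 0.0215), as it was with sample weights. The ratio of Tap1 to Psmb9 FPKM, chosen after the values were seen, was 1.65, 1.56 and 2.32 in WT and 0.944, 0.828 and 0.771 in those labelled Srsf1-cKO. The ranges did not overlap, and the mean ratio was 0.459 times that of WT. From raw counts the same comparison gave 0.457.

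**Figure D4:**
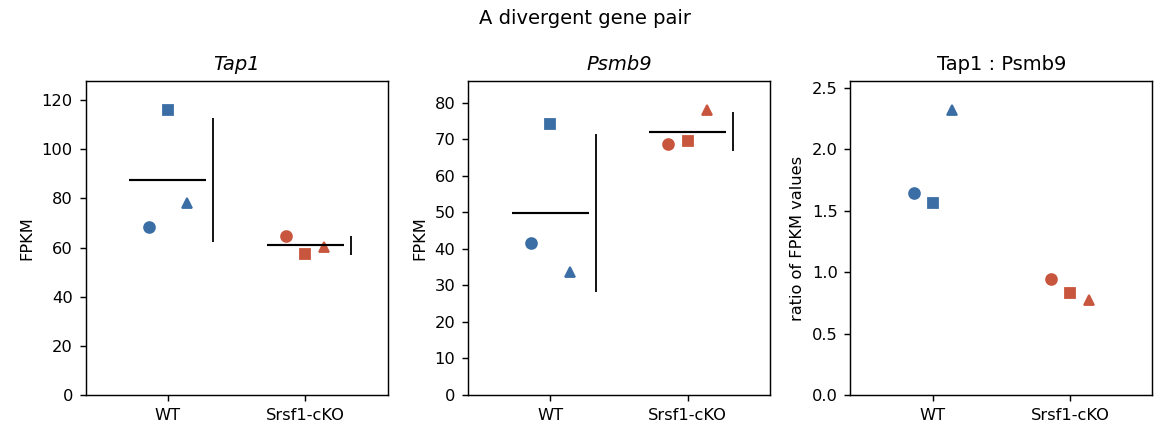
FPKM of Tap1 and of Psmb9, which start back to back, and the ratio of the FPKM values within each library (y axes from 0). Points are libraries, lines are means with 1 SD over 3 libraries. The WT ratios lie between 1.56 and 2.32 and the Srsf1-cKO ratios between 0.771 and 0.944.

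The constitutive catalytic subunits that the immunoproteasome replaces were listed with 2 activators. Of these 5 genes, edgeR called 0, beside 18.4% of all genes tested, and 2 had an unadjusted p under 0.05, beside 34.9%. Psmb5, the constitutive counterpart of Psmb8, had a log2 fold change of 0.57 (edgeR adjusted p = 0.0502). It was called in 4 of 15 alternatives and in the FPKM table (0.48, limma adjusted p = 0.0367), the 1 gene of the 5 called there. Psme4, 1 of the 2 activators, went the other way (-0.44, edgeR adjusted p = 0.0730) and was called in 3 of 15 alternatives. The ratio of Psmb8 to Psmb5 FPKM was 2.74 ± 0.477 in WT and 2.69 ± 0.447 in those labelled Srsf1-cKO. The ratios of Psmb9 to Psmb6 (0.884 ± 0.496 and 1.03 ± 0.176) and of Psmb10 to Psmb7 (0.0944 ± 0.0210 and 0.0984 ± 0.0215) overlapped too. Of 6 cytosolic peptidases, which trim or destroy peptides before transport, 1 was called lower and 0 higher. Their median log2 fold change was 0.12, and 4 of the 6 values were positive. The 1 called was Npepps, the puromycin-sensitive aminopeptidase. It fell by 0.84 (SE 0.16, edgeR adjusted p = 0.0115), from 186, 166 and 237 CPM to 113, 116 and 99.6. Npepps was called in 13 of 15 alternatives, but not without WT replicate 1 (edgeR adjusted p = 0.0536) or Srsf1-cKO replicate 2 (0.0562), where 0 of the 6 were called. Without WT replicate 3, 2 were lower, and sample weights gave 2 higher and 2 lower. Among all genes tested, 9.5% were called lower in the main test.

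Of 13 factors that bind class I promoters, 2 were lower and 0 higher, beside 9.5% lower and 8.9% higher of all genes tested. Irf2, an interferon regulatory factor, fell by 0.67 (SE 0.14, edgeR adjusted p = 0.0158), from 106, 115 and 97.1 CPM to 76.1, 60.8 and 63.1. Rfxank, a subunit of the RFX complex on which NLRC5 docks, fell by 0.92 (SE 0.22, edgeR adjusted p = 0.0242), from 10.6, 9.50 and 8.58 CPM to 5.29, 4.35 and 5.44. Nfkb1, the most abundant of this list, had a log2 fold change of 0.11 (edgeR adjusted p = 0.614). Without WT replicate 1 or Srsf1-cKO replicate 2, 0 of the 13 were called, and without Srsf1-cKO replicate 1, 1 was lower. The replicate block gave 1 higher and 3 lower, and sample weights 2 and 3. Beside these factors, the log2 fold changes of H2-K1, H2-D1 and B2m were 0.13, 0.19 and 0.10, and that of Nlrc5 was -0.22.

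Of 11 genes of the interferon gamma receptor and its signalling, 2 were higher and 0 lower in the main test. Among all genes tested, 8.9% were higher and 9.5% lower. For the 11, DESeq2 gave 3 higher and 2 lower, the replicate block 4 and 1, and sample weights 4 and 3. Leaving out WT replicate 1 gave 1 and 0, WT replicate 3 gave 2 and 1, and Srsf1-cKO replicate 1 gave 3 and 0. Ifng, which encodes interferon gamma, was at 1.44, 3.90 and 11.1 CPM in WT and at 55.8, 55.7 and 107 in those labelled Srsf1-cKO. It rose by 3.76 on the log2 scale (SE 0.58, edgeR adjusted p = 0.00761) and was called in all 15 alternatives. Socs3, an inhibitor of cytokine receptors, rose by 0.98 (SE 0.20, edgeR adjusted p = 0.0138). Jak2, the receptor kinase and the most abundant of the list, had a log2 fold change of -0.48 (edgeR adjusted p = 0.140), and was called with the replicate block (0.0310) and with sample weights. Irf1, chosen after its values were seen, carries the signal to class I promoters. It stood at 199, 196 and 184 CPM in WT and at 168, 142 and 101 in those labelled Srsf1-cKO (log2 fold change -0.50, edgeR adjusted p = 0.0866). The groups did not overlap, and the difference was not called.

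The median log2 fold change of 34 tested interferon-induced genes was 0.22. In the main test 3 were higher and 4 lower, beside 8.9% and 9.5% of all genes tested. This balance was not stable: the FPKM values gave 6 higher and 1 lower of 31, sample weights 13 and 6, the replicate block 7 and 5, and library-size scaling 4 and 2. Those higher were Ifit1 (2.09, edgeR adjusted p = 0.0129), Ifit3 (1.80, 0.0117) and Cxcl10 (1.97, 0.0197), all below 15 CPM in WT. Those lower were Irf8, a transcription factor (-0.48, edgeR adjusted p = 0.0452), and the interferon-induced GTPases Gbp2 (-1.12, 0.0131), Gbp6 (-0.86, 0.0236) and Tgtp2 (-0.72, 0.0381). Irf8 was called in 7 of 15 alternatives (adjusted p up to 0.191), Tgtp2 in 9, Gbp6 in 12 and Gbp2 in 13, and of these 4 the FPKM table called Gbp2 (-1.01, limma adjusted p = 0.0223). Ifit1 was called in 14 of 15 alternatives, Ifit3 in 13 of 14 and Cxcl10 in 12 of 14. Gbp2, Gbp6, Tgtp2 and Cxcl10 were chosen after their values were seen. Gbp2 stood at 779, 636 and 1043 CPM in WT and at 444, 404 and 282 in those labelled Srsf1-cKO. In the main test Ifng and Ifit1 were thus called higher and Gbp2 and Tap1 lower, and B2m overlapped. These are single genes and do not stand for the list. Of the 34 log2 fold changes, 24 were positive, beside 5281 of 10454 for all genes tested. The Tap1 call was kept in 8 of 15 alternatives and was not made from FPKM. Without WT replicate 1, 0 of the list were called. Without WT replicate 2, 6 were higher and 3 lower, without WT replicate 3, 4 and 2, and without Srsf1-cKO replicates 1, 2 and 3 in turn, 3 and 2, 2 and 0, and 3 and 1.

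**Figure D5:**
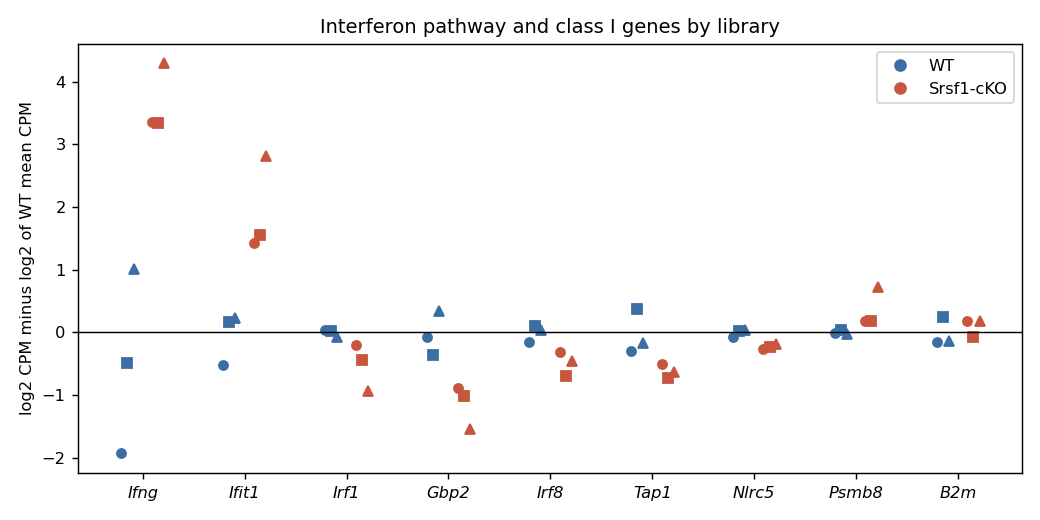
Log2 CPM minus the log2 of the WT mean CPM, for interferon pathway and class I genes in each library (blue WT, red Srsf1-cKO; circle, square and triangle for replicates 1 to 3). The Ifng points of those labelled Srsf1-cKO lie far above 0, those of Gbp2, Irf8, Tap1 and Nlrc5 lie below it, and those of B2m lie on both sides.

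Class II genes, which T cells of mice hardly make, were higher in 2 of 9 tested: H2-Aa (2.47, edgeR adjusted p = 0.0124) and Cd74 (0.86, 0.0132). Each was called in 13 of 15 alternatives. The list did not rise as a whole: 4 of the 9 log2 fold changes were positive. Their median was -0.29, and without WT replicate 2 the median of the list was 0.29. Without WT replicate 1 or Srsf1-cKO replicate 2, 0 of the list were called, and without WT replicate 2, 4 were higher. Among all genes tested, 8.9% were called higher in the main test. Markers of B cells and of macrophages and monocytes summed higher in those labelled Srsf1-cKO, at low levels, and markers of the other cells did not share this. The 8 B cell markers summed to 1.45 to 8.58 CPM in WT and 9.95 to 27.1 in those labelled Srsf1-cKO, with 1 of 5 tested called (Cd79a). The 8 macrophage and monocyte markers in the table summed to 5.41 to 7.08 and 14.9 to 27.0 CPM, with 1 of 4 tested called (Lyz2). The 7 dendritic cell markers overlapped between the groups, with sums of 5.72 to 24 and 9.82 to 14.4 CPM, and Siglech and Clec9a were at 0. Cd8b1 and Cd8a summed lower in those labelled Srsf1-cKO, at 24.6 to 42.5 CPM in WT and 16.7 to 22.8, with neither called. NK cell, neutrophil and erythroid markers stayed below 3 CPM in sum in every library, with Ncr1, Klra4, Klra8, S100a9 and the globin genes at 0. These cells carry class I too, and their part in the values of the 8 genes was not tested.

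Across the 6 libraries the 8 genes did not vary as 1 group. Pearson's r of log2 CPM between pairs, a description over 6 libraries that share the genotype difference, ran from -0.66 (H2-K1 with Nlrc5) to 0.85 (H2-D1 with Tapbp). Tap1 and Nlrc5 had 0.83, Tap1 and Tap2 had 0.11, and H2-K1 and B2m had 0.52. Among 8132 genes (mean log2 CPM of 3 or more), the genes most like Tap1 were Slc14a1 (r = 0.99), Mgrn1 (0.99) and Ankrd50 (0.99). Those most like Nlrc5 included Ik (1.00) and Pard6g (0.99), of which Pard6g was called lower (-0.58, edgeR adjusted p = 0.0382). H2-K1 was nearest to Sipa1 (0.99), Arf6 (0.95) and Ptar1 (0.95), H2-D1 to Tm6sf1 (0.99), Capn2 (0.98) and Hbegf (0.98), and B2m to Nrd1 (0.97), Nrbp1 (0.95) and Tube1 (0.94). Tap2 was nearest to Mnt, Sin3b and Gpkow (0.97 to 0.98), Tapbp to Mbnl1, Ncstn and St7 (0.98 each), and Erap1 to Dgcr14 (0.98), Ube2d3 (0.96) and Nek1 (0.96). None of the genes named here as nearest was another of the 8. With the nearest taken from 8132 genes over 6 libraries, this could hardly have come out otherwise.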

How the data were processed

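Gene counts and FPKM values were deposited by the authors for 24047 and 24043 rows named by gene symbol. The deposited counts are whole numbers with no normalization, and the FPKM unit (fragments scaled by transcript length and depth) was read from the values. An alignment report names STAR 2.4.2a, per the file headers, and holds other alignment numbers per library. Per the submitters' processing notes, the mm9 build, STAR and Cufflinks (no version) were used. The sources used here do not give the counting program, its annotation or its strand setting.

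The count test was edgeR 4.0.16 under R 4.3.3 (filterByExpr, TMM scaling, quasi-likelihood test, two-sided, genotype as the only term), with Benjamini-Hochberg adjustment over 10454 genes. The FPKM test was limma 3.58.1 (trend) on log2(FPKM + 1) for the 9617 genes with 3 or more libraries at 1 FPKM; this scale understates the change of low genes. Both tests were also run on simulated data. Intervals are 95% and rest on the spread between libraries. The design text gives 3 mice for each genotype.

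The 8 genes and the lists around them were chosen with earlier results of these data known. The genes named are the 8, Srsf1, every called partner gene and the most abundant one, and of each other list the 2 with the smallest adjusted p and the most abundant. Psmb6, Psmb7 and the other partners of within-library ratios come from a fixed list of ratios, and further genes were chosen with their values in view. Some genes that the rule takes are left out of the text. Alternatives were other scalings, filters, tools (among them DESeq2 1.42.0), thresholds, a replicate block and each library left out. Counts of calls within lists under these alternatives were added after the data were seen. Promoters are from RefSeq (GRCm38.p6), and transcript windows from GENCODE on GRCm38; neither was joined to mm9 coordinates.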

Additional observations from a re-analysis of the deposited data

How the results depend on the processing

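Of the 8 genes, 1 was called in the main edgeR test, 0 with upper-quartile scaling, with library-size scaling or at an adjusted p under 0.01, and 0 to 1 when each library was left out in turn. Over all genes, 1923 were called in the main test, 4355 by limma-voom with sample weights, 279 at an adjusted p under 0.01, 2972 at an adjusted p under 0.1, and 195 to 1989 when a library was left out (195 without WT replicate 1, 234 without Srsf1-cKO replicate 2, 1121 without Srsf1-cKO replicate 1). The cause was not tested. The FPKM table called 0 of the 8 in all 9 alternatives. H2-K1, H2-D1, B2m, Tapbp and Nlrc5 kept their sign and stayed uncalled in the 15 alternatives of the count table, and Tap1 kept its sign, with log2 fold changes from -0.76 to -0.40 (-0.61 with upper-quartile and -0.52 with library-size scaling, adjusted p of 0.0556 and 0.0810).

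Signs turned for values near 0. With library-size scaling the log2 fold changes were 0.066 for Tap2, 0.065 for Erap1 and 0.069 for H2-T23, and limma-voom with sample weights gave 0.046 for Erap1. With each library left out in turn, values ran from -0.077 to 0.0060 for Tap2, from -0.11 to 0.047 for Erap1, from -0.0047 to 0.12 for Srsf1, from -0.17 to 0.060 for H2-T23, and from -0.00095 to 0.15 for Erap1 on the FPKM scale.

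Deviations from the group mean correlated at 0.22, 0.013 and 0.27 between same-numbered libraries of the 2 genotypes. Between differently numbered libraries the values ran from -0.32 to 0.20. With so few libraries these values do not decide whether the numbers pair the samples, and the main test used genotype only. A fit with the replicate number as a block called 2270 genes and 1 of the 8 (Tap1, log2 fold change -0.59, adjusted p = 0.0469).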
